A study of Mus musculus with 3 samples.

Results

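The genes described here are the antigen presentation and interferon-stimulated genes of the mouse incisor enamel organ. They were taken by symbol from the table of raw counts as 34 named genes together with every gene whose symbol starts with H2-, the mouse prefix for genes of the major histocompatibility complex (MHC), which added 25. This gave 59 genes of 20937 listed, of which 58 were among the 18702 genes with enough counts to be tested. They fall into 18 class I genes (heavy chains and B2m), 7 genes that supply peptides to class I, 10 class II genes and 24 interferon-stimulated genes. The remaining untested gene was H2-Q1, with 3, 4 and 2 counts in the conditional knockout (Stim1 cKO), heterozygote (Stim1 HT) and control (Stim1 Ctrl). Values are given in this order of libraries wherever 3 stand together.

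RNA was sequenced from the incisor enamel organ of 4 week old mice in 3 libraries, 1 per genotype. Stim1 cKO mice (Stim1 fl/fl Cre+) carried both floxed alleles and Cre. Stim1 HT mice (Stim1 fl/wt Cre+) carried Cre with a single floxed allele, and Stim1 Ctrl mice (Stim1 fl/fl Cre-) carried both floxed alleles without Cre. STIM1 is the endoplasmic reticulum calcium sensor that opens store-operated calcium channels. Cre was driven by the amelogenin promoter (AmelX-iCre), which acts in ameloblasts from the secretory stage, so Cre was not aimed at the other cells of the dissected tissue. The study's methods state that male mice were used. With 1 library per genotype there was no replicate of any genotype, and the only spread available to a test was that between Stim1 HT and Stim1 Ctrl, which themselves differ in genotype and in Cre.

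The libraries held 21496136, 20216507 and 28265960 counts. Levels are given as CPM, the counts divided by the TMM-scaled library total, and 3 counts correspond to 0.124, 0.152 and 0.117 CPM in the same order. Stim1 itself was at 72.8, 129 and 186 CPM (edgeR quasi-likelihood test with Benjamini-Hochberg adjustment, adjusted p = 0.106). The Stim1 cKO library stood apart in markers of other tissues. Photoreceptor markers summed to 884 CPM there, against 1.47 and 1.13 CPM in the controls, lens markers to 176 against 5.58 and 3.81 CPM, and lacrimal and salivary gland markers to 1740 against 460 and 68.7 CPM. Of the 7 gland markers 3 were above both controls, against 43.6% of all genes tested. The sum rested on Obp2a (939 CPM) and Mup4 (686 CPM), while Dcpp1, the next in abundance, was highest in Stim1 HT at 91.5, 326 and 8.08 CPM. Enamel organ markers summed to 4460, 31500 and 23300 CPM, skeletal muscle markers to 4210, 16700 and 19700 CPM, and mesenchyme markers to 35100, 48800 and 75900 CPM. More than 2-fold below both controls were 3 of 7, 4 of 6 and 3 of 6 of these markers, against 6% of all genes tested. Above both were 2 of 7, 1 of 6 and 0 of 6, against 43.6%. Odam (enamel organ) and Myh4 (muscle), named because of their values, ran against their sums. Odam was at 694, 196 and 75.1 CPM and Myh4 at 473, 318 and 29.1 CPM. Since Stim1 cKO is the only library of its genotype, no comparison could be repeated without it, and its cell content and its genotype cannot be told apart. In such bulk samples, more cells of a type and more RNA per cell cannot be told apart either.

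MHC class I molecules sit on nearly all nucleated cells and consist of a polymorphic heavy chain held by beta-2 microglobulin. They display peptides that the immunoproteasome cuts and the TAP transporter brings into the endoplasmic reticulum, and the activator NLRC5 turns on the whole set. Class II molecules are pairs of alpha and beta chains loaded with endosomal peptides after the invariant chain CD74 is removed, are made mainly by B cells, dendritic cells and macrophages, and depend on the activator CIITA. Type I interferon switches on antiviral genes through a complex containing STAT2 and IRF9 that binds the interferon-stimulated response element (ISRE), while interferon gamma acts at gamma-activated sites (GAS) and raises class I and class II genes as well.

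The promoter sequences show which of these control elements the genes carry. The 250 bases before each RefSeq start (GRCm38.p6) were searched on both strands for the ISRE core GAAANNGAAA (TTTCNNTTTC on the other strand), the GAS palindrome TTCNNNGAA and the Y box CTGATTGG (CCAATCAG), an element shared by class II promoters and some class I promoters. Windows were found for 45 of the 59 genes, 51 windows in all. Below, capitals mark the matched letters, each line runs 5′ to 3′ along the gene's strand, and the stretch shown ends before the annotated start. The first 3 genes are interferon-stimulated genes with Stim1 cKO above both controls, the next pair are interferon-stimulated genes without that order, B2m is the class I light chain and the last pair are class II chains.
Ifit1 (chr19:34640755-34640833, plus strand): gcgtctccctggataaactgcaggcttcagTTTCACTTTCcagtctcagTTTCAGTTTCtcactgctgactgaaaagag
Ifit3 (chr19:34583343-34583436, plus strand): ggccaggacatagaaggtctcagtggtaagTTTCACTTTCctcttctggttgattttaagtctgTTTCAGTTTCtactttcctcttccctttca
Isg15 (chr4:156200855-156200926, minus strand): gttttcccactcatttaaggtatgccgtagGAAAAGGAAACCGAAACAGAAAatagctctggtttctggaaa
Bst2 (chr8:71537567-71537638, minus strand): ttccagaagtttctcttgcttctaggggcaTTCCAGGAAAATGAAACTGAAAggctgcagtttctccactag
Rsad2 (chr12:26456543-26456602, minus strand): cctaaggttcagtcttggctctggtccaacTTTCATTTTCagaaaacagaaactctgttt
B2m (chr2:122147518-122147577, plus strand): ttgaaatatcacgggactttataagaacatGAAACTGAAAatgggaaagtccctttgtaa
H2-Aa (chr17:34287847-34287904, minus strand): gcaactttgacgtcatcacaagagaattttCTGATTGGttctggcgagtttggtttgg
H2-Eb1 (chr17:34305775-34305832, plus strand): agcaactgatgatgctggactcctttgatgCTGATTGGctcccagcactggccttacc
Ifit1 and Ifit3 each held a pair of separate ISRE cores, 104 and 85 bases before the start in Ifit1 and 156 and 122 bases before it in Ifit3, whereas the 3 cores of Isg15 and the 2 cores of Bst2 overlapped. The Bst2 core 130 bases before the start also overlapped a GAS match.

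The ISRE core was found in 10 of 24 windows of interferon-stimulated genes (41.7%), against 2.98% of all 32851 windows. It was in 3 of 14 class I windows (B2m, H2-T22 and H2-T23) and in 0 of 5 peptide supply and 0 of 8 class II windows. The Y box had another distribution, with 3 of 8 class II windows (H2-Aa, H2-Eb1 and H2-Oa), 5 of 14 class I windows, 2 of 5 peptide supply windows (Psmb9 and Tap1) and 0 of 24 windows of interferon-stimulated genes, against 3.83% of all windows. GAS matches were in 5 of 24 windows of interferon-stimulated genes and in 1 window of each of the other 3 lists, against 7.02% of all windows. A match to these letters is a description of the sequence, not evidence of binding.

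Most of the genes had their highest level in Stim1 cKO. It was above both controls for 49 of the 58 tested genes, against 43.6% of all genes tested, and only Bst2 and Ifit2 were below both controls, against 42.1% of all genes. More than 2-fold above both controls, on the log2(CPM + 1) scale that is used for all such counts here, were 19 of 58 genes (32.8%), against 13.2% of all genes tested. None was more than 2-fold below both controls, against 6% of all genes tested. The lists contributed unequally to the 19 genes, with 6 of 10 class II genes, 8 of 17 class I genes, 1 of 7 peptide supply genes (Nlrc5) and 4 of 24 interferon-stimulated genes (Ifit1, Ifit3, Oasl2 and Usp18). H2-Q5, among the 8 class I genes, and H2-T-ps reached the filter on low counts in Stim1 cKO alone. They are 2 of 1320 such genes among the 18702 tested. Both are among the 49 genes above both controls, and H2-Q5 is among the 19. The 49 and 19 genes, like the 43.6% and 13.2%, thus include genes whose difference was built into the choice to test them.

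Single genes rarely passed a test, which rested on the spread between the controls. H2-Q5 and H2-T-ps, which reached the filter in Stim1 cKO alone, are among the genes counted below as higher at an unadjusted p under 0.05. The share over all genes draws on the 1320 such genes too. The edgeR quasi-likelihood test, calling a gene at a Benjamini-Hochberg adjusted p under 0.01 with a fold over 2, called 0 of the 58 genes, with a background of 0.0749% of genes tested called higher and 0% called lower. At an unadjusted p under 0.05 it had 20 of 58 higher (34.5%), against 18.5% of all genes, and 1 lower, Ifit2, against 13.4%. DESeq2 with the same thresholds called 4 of 58 genes higher (6.9%), against 5.92% of all genes, a share near the background, and 0 lower, against 4.71%. Those 4 were the class II chains H2-Ab1 and H2-Eb1, the class I heavy chain H2-K1 and Ifit1.

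Levels also differed between the controls. Stim1 HT was more than 2-fold above Stim1 Ctrl in 18 of 58 genes (31%), against 3.9% of all genes tested, and more than 2-fold below it in 0, against 1.14%. The order Stim1 cKO above Stim1 HT above Stim1 Ctrl was found in 47 of 58 genes (81%), against 26.3% of all genes tested. It was found in all 10 class II genes, 21 of 24 interferon-stimulated genes, 12 of 17 class I genes and 4 of 7 peptide supply genes. The 12 class I genes include H2-Q5 and H2-T-ps, which reached the filter on low counts in Stim1 cKO alone. The share over all genes draws on the 1320 such genes too.

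**Figure D1:**
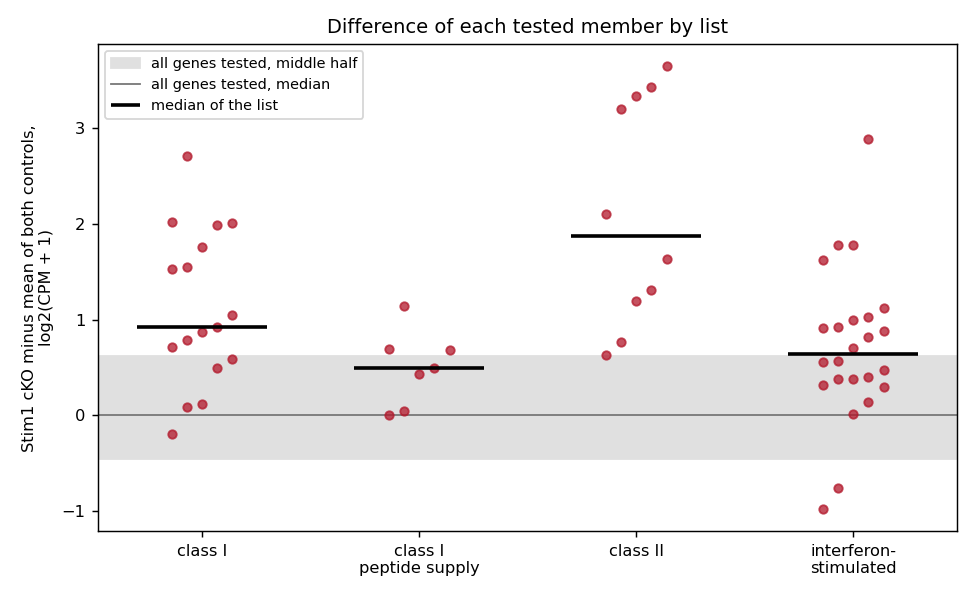
Difference between Stim1 cKO and the mean of both controls in log2(CPM + 1) (vertical axis) for each of the 58 tested genes (points), by list, with the median of each list (black bar) and the median (line) and interquartile range (grey band, -0.46 to 0.62) of all 18702 genes tested. All 10 class II points lie above the grey band, while the peptide supply points run from 0.01 to 1.14 and the interferon-stimulated points from -0.98 to 2.89.

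The differences were largest for class II. The median difference between Stim1 cKO and the mean of the controls in log2(CPM + 1) was 1.87 over class II genes, 0.92 over class I genes, 0.64 over interferon-stimulated genes and 0.50 over peptide supply genes, beside 0 over all genes tested. Between the controls, the median of Stim1 HT minus Stim1 Ctrl was 1.20 over class II genes, 0.64 over interferon-stimulated genes, 0.42 over class I genes and 0.28 over peptide supply genes, beside 0 over all genes tested. Against Stim1 HT alone the medians were 1.27 for class II, 0.81 for class I, 0.31 for interferon-stimulated and 0.12 for peptide supply genes. The differences between lists were not tested.

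Class II genes were at their highest in Stim1 cKO without exception. Their summed level came to 323, 70.3 and 17.1 CPM, 4.59-fold and 18.9-fold higher in Stim1 cKO than in each control. As a share of all counts this was 0.0364% (95% Wilson interval 0.0356 to 0.0372), 0.00685% (0.0065 to 0.00722) and 0.00156% (0.00142 to 0.00171), and these intervals cover counting error only. The sum without Cd74, its most abundant member, was 4.54-fold and 16.1-fold higher.

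The classical class II chains lie together on chromosome 17 (GRCm38). H2-Aa, the I-A alpha chain (chr17:34282744-34287823), had 1551, 205 and 35 counts, or 64.1, 10.4 and 1.36 CPM. H2-Ab1, its beta chain partner (chr17:34257689-34269419), was at 57.0, 10.1 and 2.56 CPM. H2-Eb1, the I-E beta chain (chr17:34305867-34316674), was at 54.7, 9.34 and 1.59 CPM. The 3 chains were 5.64 to 6.16 times the Stim1 HT level in Stim1 cKO but spread more widely over Stim1 Ctrl, with 22.2-fold for H2-Ab1, 34.3-fold for H2-Eb1 and 47.1-fold for H2-Aa. In DESeq2 the log2 fold change was 3.18 ± 0.73 (SE) for H2-Ab1 (adjusted p = 0.000214) and 3.33 ± 0.83 for H2-Eb1 (adjusted p = 0.000876). The same genes had edgeR adjusted p-values of 0.0586 and 0.0782. For H2-Aa, whose controls lay farther apart, the estimate was 3.45 ± 1.90 (DESeq2 adjusted p = 0.223, edgeR adjusted p = 0.0887).

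Cd74, the invariant chain that escorts new class II molecules, was at 112, 23.8 and 4.00 CPM. Ciita, the master activator of class II transcription, had 71, 22 and 5 counts, or 2.93, 1.12 and 0.194 CPM. Both followed the order of the chains, although neither was called by edgeR (adjusted p = 0.0969 for Cd74 and 0.197 for Ciita). Ciita overlaps Dexi on the other strand, and whether counting used strand is not given in the sources used here, so reads of both genes cannot be told apart.

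The peptide editors of class II differed among themselves. H2-DMa and H2-DMb1, chains of the DM molecule that exchanges CD74 remnants for peptide, had the smallest folds over Stim1 Ctrl of the class II genes, with 8.72, 5.89 and 3.69 CPM for H2-DMa and 9.46, 4.37 and 2.88 CPM for H2-DMb1. H2-DMb2, the other DM beta chain, was at 5.37, 2.08 and 0.35 CPM. H2-Ob, the beta chain of the DM inhibitor DO, which is made mainly in B cells, was at 7.56, 2.03 and 0.311 CPM. Its partner H2-Oa was nearly level between Stim1 cKO and Stim1 HT, at 1.45 and 1.17 CPM, with 0.155 CPM (4 counts) in Stim1 Ctrl. H2-DMa overlaps Brd2 and H2-Oa overlaps BC051537 on the other strand, so their levels are uncertain in the same way as that of Ciita. The same holds for Irf7, which overlaps Phrf1, and for H2-T10, H2-T22, H2-T-ps, H2-Q4, Usp18, Irf1, Ifi35 and Gbp2, each of which overlaps an annotated antisense gene. Irf9 overlaps Rnf31 on its own strand.

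**Figure D2:**
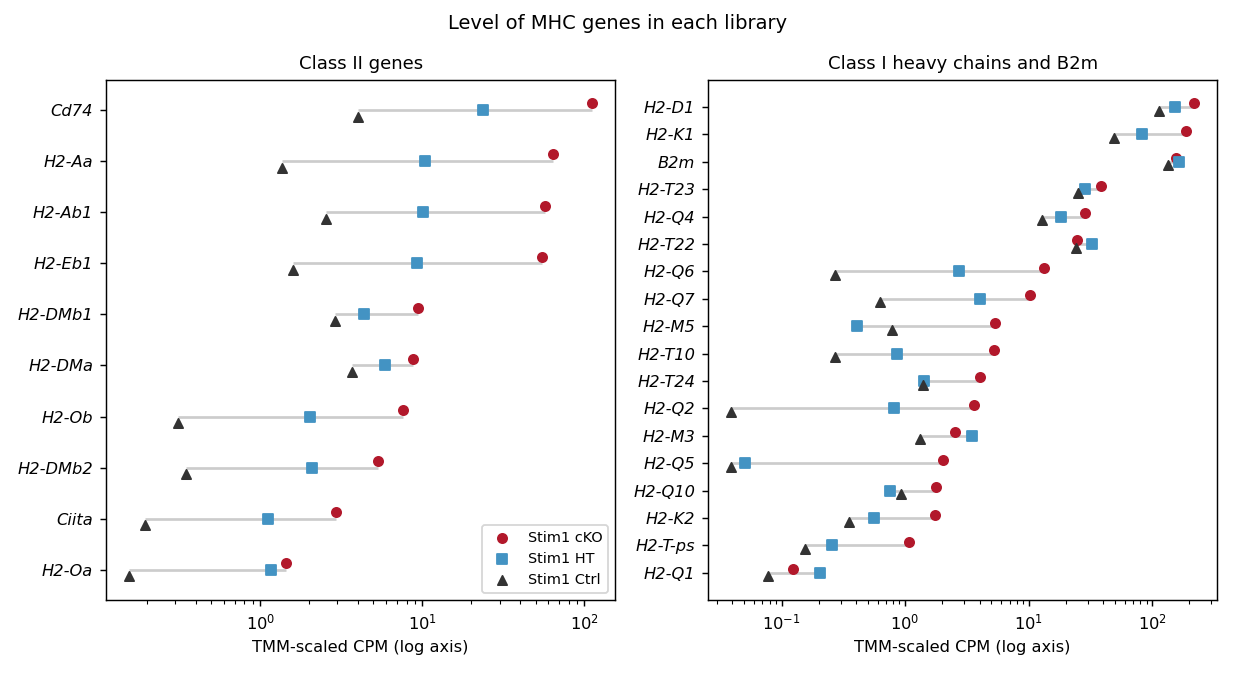
Level of each class II gene (left) and class I gene (right) in TMM-scaled CPM on a log axis, with 1 point per library and a grey line over their range. All class II genes are in the order Stim1 cKO, Stim1 HT, Stim1 Ctrl from high to low, whereas B2m, H2-T22, H2-M3 and H2-Q1 have Stim1 HT as the highest library.

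Markers of the cells that make class II moved only in part with it. The 7 B cell markers summed to 33.0, 22.1 and 4.39 CPM. Above both controls were 6 of 7, against 43.6% of all genes tested, and more than 2-fold above both 0 of 7, against 13.2%. More than 2-fold higher in Stim1 HT than in Stim1 Ctrl were 6 of 7, against 3.9%. From Stim1 HT to Stim1 cKO the B cell sum was 1.5-fold higher and the class II sum 4.59-fold higher. From Stim1 Ctrl to Stim1 HT they were 5.03-fold and 4.11-fold higher. Cd79b, the most abundant B cell marker and a chain of the B cell receptor, was the exception. It was lower in Stim1 cKO than in Stim1 HT, at 5.87, 6.35 and 1.94 CPM. Its partner Cd79a was at 6.98, 4.01 and 0.894 CPM, and Ms4a1 (CD20) at 5, 3.86 and 0.311 CPM. Fcer2a, at 3.47, 1.42 and 0.155 CPM, and Pax5, at 2.85, 1.12 and 0.311 CPM, are named because of their values. Without the pseudocount both were more than 2-fold above both controls, 2.44-fold and 2.55-fold over Stim1 HT. The rest were 0.924 to 1.77 times the Stim1 HT level.

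Dendritic cell markers summed to 20.2, 16.0 and 14.2 CPM, with 6 of 8 markers listed, Xcr1 and Clec9a not among them. The sum was dominated by Zbtb46, which was lower in Stim1 cKO, at 9.25 against 12.3 CPM in both controls. Itgax (CD11c) was at 2.89, 0.863 and 0.389 CPM and Flt3 at 2.69, 0.508 and 0.816 CPM. Itgax, Flt3 and Cd209a were the 3 of 6 markers more than 2-fold above both controls, against 13.2% of all genes tested. Cd209a, which is named because of its values, had 59, 1 and 4 counts.

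Macrophage markers did not follow class II as a sum. They summed to 401, 524 and 426 CPM. More than 2-fold below both controls in Stim1 cKO were 4 of 10, against 6% of all genes tested. Above both controls were 3 of 10, against 43.6%. Csf1r, the receptor for the macrophage growth factor CSF1, was at 33.7, 89.6 and 103 CPM and Mrc1 at 20, 44.0 and 66.6 CPM. C1qa, C1qb, C1qc, Cd68 and Adgre1, named because of their values, were likewise below both controls. Lyz2 (lysozyme) was at 229, 195 and 64.6 CPM and Ptprc, named because of its values, at 19.2, 14.2 and 9.44 CPM, both in the order of class II. Neither Lyz2 nor Ptprc is particular to macrophages. Plasma cell markers, from antibody-secreting cells that largely shut off class II, summed to 172, 7.51 and 3.69 CPM. In Stim1 cKO the sum rested on Igha (72.9 CPM), Igkc (60.9 CPM) and Jchain (31.6 CPM). Derl3 and Mzb1, named because of their values, were at 3.76 and 2.15 CPM in that library. T and NK cell markers summed to 10.7, 13.0 and 4.08 CPM, with Cd8a not listed. Endothelium markers were lower, at 213, 466 and 526 CPM. The part of any of these cell types in the class II difference was not tested.

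**Figure D3:**
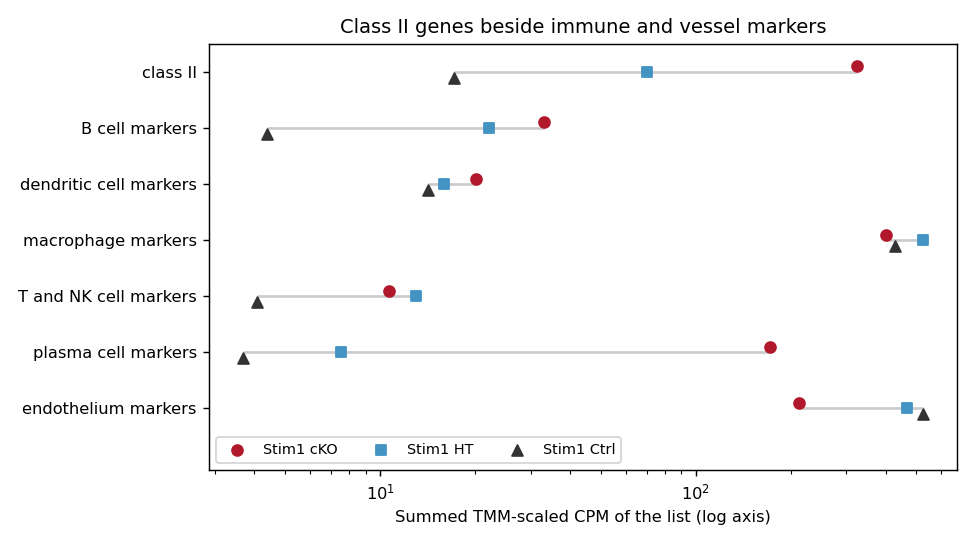
Summed TMM-scaled CPM (log axis) of the 10 class II genes and of marker lists for immune cells and endothelium, with 1 point per library. Class II runs from 17.1 to 323 CPM, and B cell, dendritic cell and plasma cell markers rank the libraries in the same order. B cell markers lie close in Stim1 cKO (33.0 CPM) and Stim1 HT (22.1 CPM), whereas plasma cell markers lie apart (172 and 7.51 CPM). Macrophage and endothelium markers are lowest in Stim1 cKO.

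Other components of class II and class I processing were not higher as a list. Of 17 genes of peptide loading and class II processing outside the set, 3 were above both controls (Ctss, Erap1 and Tapbpl, named because of their values), against 43.6% of all genes tested, and the median difference was -0.33. edgeR and DESeq2 called 0 of the 17, against 0.0749% and 5.92% of all genes called higher. The most abundant, the chaperone Calr, was at 532, 804 and 785 CPM, and Pdia3 and Canx had likewise their lowest level in Stim1 cKO, at 357 and 302 CPM.

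Class I genes were higher in Stim1 cKO by a smaller factor. Their summed level came to 708, 496 and 366 CPM, 1.43-fold and 1.93-fold higher in Stim1 cKO than in each control. The heavy chains alone were 1.66-fold and 2.37-fold higher. B2m, the light chain that they share, was not above both controls, at 157, 164 and 134 CPM (log2 fold change 0.07 ± 0.33, DESeq2 adjusted p = 0.92). Per kilobase of exon B2m was the most abundant gene of the set in all 3 libraries, at 183, 191 and 155 CPM per kb.

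H2-K1 and H2-D1, the classical heavy chains that present peptide to CD8 T cells, had different folds. H2-K1 (chr17:33996017-34000347) had 4585, 1625 and 1269 counts, or 189, 82.5 and 49.3 CPM, 2.30-fold above Stim1 HT and 3.84-fold above Stim1 Ctrl. Its log2 fold change was 1.52 ± 0.41 in DESeq2 (adjusted p = 0.00255) with an edgeR adjusted p of 0.0641. H2-D1 (chr17:35262730-35267499) was at 219, 154 and 114 CPM, 1.42-fold and 1.91-fold higher in Stim1 cKO (log2 fold change 0.70 ± 0.35, DESeq2 adjusted p = 0.162). The test of the difference between H2-K1 and H2-D1 was not made, and reads of class I genes can be split between near-identical copies by the counting.

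The non-classical class I genes of the H2-Q, H2-T and H2-M groups, whose products have mostly restricted or regulatory roles, held the widest folds and the lowest counts. H2-Q6 had 322, 54 and 7 counts and H2-Q7 had 250, 79 and 16 counts. Both are close copies of each other and both were already more than 2-fold higher in Stim1 HT than in Stim1 Ctrl, the only class I genes of which this was true on the log2(CPM + 1) scale. H2-T10 had 127, 17 and 7 counts, and H2-T24 had 97, 28 and 36 counts. In all 4 genes Stim1 cKO was more than 2-fold above both controls.

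H2-Q5 and H2-M5 had the lowest edgeR adjusted p-values. H2-Q5, annotated as a polymorphic pseudogene, had 49 counts in Stim1 cKO and 1 count in each control, a ratio of 39.9 to Stim1 HT (95% exact counting interval 6.83 to 1610) and of 52.1 to Stim1 Ctrl (8.92 to 2100). Its edgeR adjusted p was 0.0268, but H2-Q5 and H2-T-ps are the 2 tested genes of the set that reached the filter on low counts in Stim1 cKO alone, so their difference was built into the choice to test them and its p supports nothing. H2-M5 had 130, 8 and 20 counts with an edgeR adjusted p of 0.0459. H2-Q2 had 88, 16 and 1 counts, a ratio of 4.48 to Stim1 HT (2.61 to 8.17) and of 93.6 to Stim1 Ctrl (16.4 to 3740).

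The more abundant non-classical genes had smaller folds. H2-T23, which encodes Qa-1, a ligand of NK cell receptors, was at 38.5, 28.6 and 25.3 CPM. H2-Q4 was at 28.8, 18.3 and 12.8 CPM. H2-T22, a ligand of some gamma delta T cells, was at 24.5, 32.6 and 24.2 CPM, and H2-M3, which presents formylated peptides, was at 2.52, 3.50 and 1.32 CPM. Thus H2-T22 and H2-M3 lay between the controls, and the sign of their log2 fold change depended on which control was used. H2-Q10, H2-K2 and H2-T-ps, of which H2-K2 and H2-T-ps are annotated as pseudogenes, had 26 to 43 counts in Stim1 cKO and 4 to 24 in the controls.

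Genes that supply peptides to class I were nearly level between Stim1 cKO and Stim1 HT. They summed to 166, 160 and 124 CPM. Tapbp (tapasin, which holds class I next to the TAP transporter) was the most abundant and varied least, at 81.2, 84.9 and 76.2 CPM. The transporter chains were above both controls in Stim1 cKO, with 17.3, 14.0 and 11.4 CPM for Tap1 and 25.4, 16.7 and 14.5 CPM for Tap2.

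The inducible immunoproteasome subunits were separated by Stim1 Ctrl and not by Stim1 cKO. Psmb8 was at 14.9, 15.5 and 6.61 CPM, Psmb9 at 6.16, 5.58 and 1.98 CPM and Psmb10 at 17.2, 21.8 and 12.5 CPM. Psmb8 and Psmb9 were the peptide supply genes more than 2-fold higher in Stim1 HT than in Stim1 Ctrl. Nlrc5, the activator of class I transcription, had another pattern, with 3.72, 1.27 and 1.01 CPM (90, 25 and 26 counts, edgeR adjusted p = 0.115). Tap1 and Psmb9 overlap head to head, and Tap2, Psmb8, Tapbp and Nlrc5 each overlap an annotated antisense gene, so their reads are uncertain without the strand setting.

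Interferon-stimulated genes were mostly higher in Stim1 cKO by small amounts, with a few genes far above the rest. Their summed level came to 367, 302 and 216 CPM, 1.22-fold and 1.70-fold higher in Stim1 cKO than in each control. Of 24 genes, 21 were above both controls, against 43.6% of all genes tested, and 4 were so by more than 2-fold (16.7%), beside 13.2%. The share over all genes includes the 1320 that reached the filter on low counts in Stim1 cKO alone. None of the 24 genes did so. In Stim1 HT, 8 of 24 were more than 2-fold above Stim1 Ctrl (33.3%), against the 3.9% of all genes.

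The IFIT family, which binds viral RNA, held genes of opposite direction. Ifit1 (chr19:34640871-34650009), whose pair of ISRE cores is shown above, had 453, 68 and 15 counts, or 18.7, 3.45 and 0.583 CPM. Its log2 fold change was 3.23 ± 0.98 in DESeq2 (adjusted p = 0.00846) with an edgeR adjusted p of 0.0935. Ifit3 was at 12.4, 4.82 and 1.63 CPM. Ifit2 ran the other way, at 7.27, 12.9 and 18.1 CPM, with Stim1 cKO lowest and Stim1 Ctrl highest (log2 fold change -1.1 ± 0.56, DESeq2 adjusted p = 0.174, edgeR adjusted p = 0.149). Ifit2 and Ifit3 neighbour Ifit1 on chromosome 19, and the Ifit2 window held a GAS match but no ISRE core.

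The ISG15 system showed a step between the controls. Isg15, a ubiquitin-like protein joined to other proteins after interferon, was at 5.87, 5.03 and 1.32 CPM. Usp18, the protease that removes ISG15 and dampens receptor signalling, was at 8.47, 3.45 and 1.13 CPM. Isg15 thus differed 1.17-fold between Stim1 cKO and Stim1 HT, and Usp18 differed 2.45-fold.

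The OAS family, whose members detect double-stranded RNA, was 2.54-fold and 4.69-fold higher in Stim1 cKO than in Stim1 HT and Stim1 Ctrl when summed. Oasl2 was the main contributor, at 20.6, 6.90 and 4.00 CPM (edgeR adjusted p = 0.0643, DESeq2 adjusted p = 0.0156). Oas1a was at 2.73, 2.03 and 0.466 CPM and Oas2 at 2.40, 1.17 and 1.01 CPM. Oas1a had near-identical relatives among which reads can be split.

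Sensors, GTPases and transcription factors of the set were each above both controls without any passing the 2-fold line. Ifih1 (MDA5) was at 12.3, 6.35 and 5.87 CPM, Ddx58 (RIG-I) at 19.4, 16.4 and 11.3 CPM and Zbp1 at 2.81, 1.32 and 0.505 CPM. Among the guanylate-binding proteins, Gbp2 was at 14.0, 8.88 and 4.70 CPM, whereas Gbp3 and Gbp7 lay within 1.62-fold of both controls. Irf7, the amplifier of the type I response, was at 10.7, 5.89 and 3.19 CPM. Stat2, Irf9 and Irf1 were closer to the controls, at 27.5, 22.3 and 25.3 CPM in Stim1 cKO and 16.6 to 24.1 CPM in the controls.

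Among the other effectors Stim1 HT was the highest library for Bst2 and Rsad2. Bst2 (tetherin, which holds budding virions at the cell surface) was at 9.42, 24.6 and 11.1 CPM, and Rsad2 (viperin) at 11.9, 19.3 and 6.99 CPM. Rtp4 was at 7.11, 5.18 and 1.98 CPM and Xaf1 at 6.07, 5.08 and 2.80 CPM. Ifitm3, which blocks entry of virus from endosomes, was the most abundant interferon-stimulated gene and varied little, at 81.0, 75 and 57.4 CPM. Ifi35 was at 17.4, 14.9 and 11.1 CPM. Bst2 and Rsad2 both carry an ISRE core in the window searched.

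The interferon-stimulated genes were also split by the presence of an ISRE core in the window. Of the 10 genes with a core, 8 were above both controls, against 43.6% of all genes tested. Their median difference was 0.70, with a range from -0.76 to 2.89. Of the 10 genes that had a window without a core, 9 were above both controls, with a median of 0.44 and a range from -0.98 to 1.78. The ranges overlapped, and the part of the core in the difference was not tested.

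**Figure D4:**
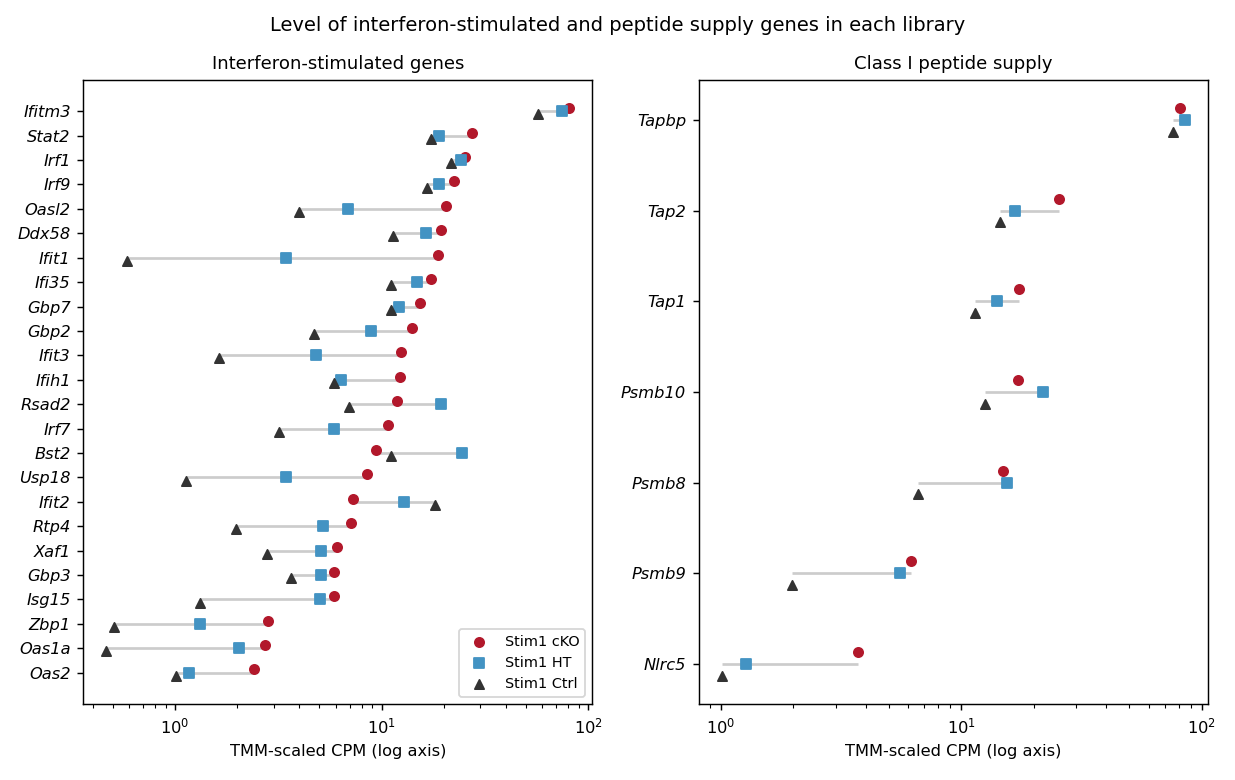
Level of each interferon-stimulated gene (left) and peptide supply gene (right) in TMM-scaled CPM on a log axis, with 1 point per library and a grey line over their range. Ifit1 spans the widest range, from 0.583 to 18.7 CPM, Ifit2 is the gene with the reverse order, and Bst2, Rsad2, Tapbp, Psmb8 and Psmb10 are highest in Stim1 HT.

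A wider list of interferon-stimulated genes, outside the set, was mixed. Of 40 further genes 37 were listed, Ifi44l, Gbp5 and Gbp6 not among them, and 27 of the 37 were above both controls, against 43.6% of all genes tested, with a median difference of 0.61. Their summed level was 1.02-fold and 1.23-fold that of Stim1 HT and Stim1 Ctrl. More than 2-fold above both were 4 of 37, Ifi203, Gbp4, Ifit3b and Mx1, which are named because of their values, beside 13.2% of all genes tested. That share includes genes that reached the filter in Stim1 cKO alone. edgeR and DESeq2 each called 0 of the 37, against 0.0749% and 5.92% of all genes called higher. The most abundant of the list, Ifitm2, was lower in Stim1 cKO, at 106, 158 and 164 CPM.

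Genes that sense nucleic acids or relay interferon had medians near that of all genes. Of 11 interferon receptor and signalling genes, Tyk2, named because of its values, was the 1 above both controls, against 43.6% of all genes tested. The median difference over the list was -0.11. Ifnar1, a chain of the type I receptor, was at 49.8, 89.6 and 98.7 CPM, Ifngr2, a chain of the interferon gamma receptor, at 41.6, 70.2 and 68.3 CPM, and the kinase Jak1 at 106, 125 and 153 CPM. Trim25, the most abundant of 9 nucleic acid sensing genes tested, was lower in Stim1 cKO, at 41.5, 47.5 and 53.2 CPM. Of the 9, 4 were above both controls (Eif2ak2, Adar, Tlr3 and Dhx58, the last pair named because of their values), close to the 43.6% of all genes, with a median difference of 0.02. None of the genes of either list lay more than 2-fold from both controls, against 13.2% of all genes tested above and 6% below.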

How the data were processed

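RNA-seq counts were analysed from 3 enamel organ libraries, 1 per genotype. The authors deposited raw counts per gene symbol, with 1 as the smallest count listed. The submitters' processing notes name FastQC, STAR and DESeq2. The genome build, counter, annotation and strand setting are not given in the sources used here, and the paper and the labels name different library kits.

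Counts were filtered (filterByExpr), TMM-scaled and tested by the edgeR 4.0.16 quasi-likelihood test in R 4.3.3, Stim1 cKO against both controls together, with Benjamini-Hochberg adjustment over the 18702 genes tested. The fit had 1 residual degree of freedom. DESeq2 1.42.0 was the alternative. The scripts were checked on simulated counts. Differences used log2(CPM + 1), a pseudocount of 1 CPM. Gene positions and exon lengths came from GENCODE M21 (GRCm38) and promoters from RefSeq (GRCm38.p6). Alternatives changed the scaling, filter, pseudocount, threshold and tool and left out each control. The members and lists were chosen with earlier results of these data known. Any member could be named, and other genes as the up to 3 most abundant of each list or where stated. 1 gene of the interferon signalling list is not reported here. No files besides the count table were used.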

Additional observations from a re-analysis of the deposited data

How the results depend on the processing

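Calls across all genes depended strongly on the method. edgeR called 14 genes as reported, 50 with RLE scaling, 6 with library size scaling, 907 without the filter and 1811 at an adjusted p under 0.05, and DESeq2 called 1987. Among the genes described here the count of 0 became 4 with DESeq2, 1 without the filter (H2-Q5) and 2 at an adjusted p under 0.05 (H2-Q5 and H2-M5). Library size scaling moved the median of all genes tested from 0 to 0.22 and that of peptide supply from 0.5 to 0.74, and reversed H2-T22 to 0.03 and Rsad2 to 0.10 in log2 fold change. A pseudocount of 0.1 CPM moved the median of class I from 0.92 to 1.57 and of class II from 1.87 to 2.75. The cause of these shifts was not tested.

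Leaving out a control changed several values. Genes more than 2-fold above the remaining control were 19 without Stim1 Ctrl and 33 without Stim1 HT. The shares of all genes tested at these settings were not taken, so neither count is a result about this set. For the 47 of 58 genes with Stim1 cKO above Stim1 HT above Stim1 Ctrl, leaving out Stim1 Ctrl could not change the count. Those more than 2-fold below were 1 in either case, Bst2 without Stim1 Ctrl and Ifit2 without Stim1 HT. The peptide supply median ran from 0.12 without Stim1 Ctrl to 0.77 without Stim1 HT. That of interferon-stimulated genes ran from 0.31 to 0.83. In the same order the log2 fold change ran from -0.06 to 0.23 for B2m, -0.06 to 0.09 for Tapbp, -0.42 to 0.01 for H2-T22, -0.06 to 1.17 for Psmb8, -0.70 to 0.77 for Rsad2 and -0.48 to 0.93 for H2-M3. No paired analysis was possible because each genotype had 1 library. With 1 library per genotype, no value here has a replicate check.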
